A study of Homo sapiens with 18 samples.

Results

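KO1, a line of HEK293T cells made with CRISPR-Cas9 against UBR7, was compared with its parental HEK293T cells in RNA-seq libraries that share a date code. Of the 18 samples of the series, 4 entered the comparison: KO1 library 1 and parental library 1 carry 1 date in their column names and make up date pair 1, and KO1 library 2 and parental library 2 carry another and make up date pair 2. HEK293T is an established human embryonic kidney line that carries the large T antigen of SV40, so both groups share that background. The labels give the genotype of KO1 as UBR7KO and that of the other cells as parental, both grown in the same serum-containing medium. They do not say whether KO1 is a single clone, nor whether libraries 1 and 2 came from separate cultures. The p-values measure how far the changes of the 2 date pairs disagree, and that disagreement may be technical. Of the 14177 genes in the deposited table, 14059 stood above 1 CPM (reads scaled to the total of the library) in at least 2 of the 4 libraries and were tested, and 118 were not.

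UBR7 carries a UBR box, a zinc-binding fold that other members of its family use to read the first residues of proteins marked for degradation, and a PHD finger, a fold often found in readers of histone tails. It has been described as a ubiquitin ligase for histone H2B, and the title of the series names it a chaperone of histone H3. Histone chaperones hold histones while they are off DNA and hand them on for assembly into nucleosomes.

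The KO1 libraries held 26395544 and 25487348 reads and the parental libraries 27418953 and 22153291, and the listed genes took 99.7% to 99.8% of them. Libraries of 1 date resembled each other more than libraries of 1 group did: a chi-square of reads over the tested genes was 35.7 and 45.7 per degree of freedom between KO1 and parental libraries of the same date, against 145 between the KO1 libraries and 140.0 between the parental libraries. Deviations from the group mean had a correlation of 0.81 across genes between libraries of 1 date, so each KO1 library was set against the parental library of its own date. The mitochondrial rRNAs took 15.8% and 21.1% of reads in KO1, against 17.1% and 20.7% in parental cells. Of 14 markers of embryonic kidney and HEK293 cells 13 were in the table, at a summed 483 and 734 CPM in KO1 and 445 and 699 CPM in parental cells. No keratinocyte, endothelial or liver marker of lists of 10, 9 and 8 genes was in the table, nor were 8 of 10 blood markers and 6 of 10 fibroblast markers. The 2 blood markers summed to 2.69 and 3.37 CPM in KO1 and 2.74 and 1.90 CPM in parental cells, and the 4 fibroblast markers to 16.4 and 14.4 CPM in KO1 and 16.2 and 17.2 CPM in parental cells.

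In a knockout line the RNA of the targeted gene is a first check of the labels, though it does not show the protein. UBR7 (ENSG00000012963, chromosome 14, 93673401 to 93695561, in the GRCh37-type coordinates of the table) stood at 27.0 and 26.3 CPM in KO1 and 55.0 and 62.2 CPM in parental cells. The groups did not overlap, and the KO1 mean was 0.455 of the parental mean. On the log2(CPM + 1) scale used for every change here, UBR7 fell by 1.10 (SE 0.13, limma adjusted p = 1.84e-05). Counts per gene do not show which exons the remaining reads came from. None of the other 6 tested UBR box genes passed the test. Among them UBR1, UBR2 and UBR4, ubiquitin ligases that bind destabilising first residues, had log2 changes of 0.17, 0.16 and 0.18.

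Across all tested genes, 303 were higher in KO1 (2.16%) and 193 lower (1.37%) at a limma adjusted p under 0.05 with the date as a block, and 2270 had an unadjusted p under 0.05. All 496 called genes moved in the same direction in both date pairs, which largely follows from being called, since the test uses those pair differences. For 379 of them the KO1 and parental libraries did not overlap in CPM, a share that was not counted over all tested genes. For the other 117 the groups overlapped once dates were mixed, so those calls rest on the difference within each pair. Most changes were modest: the median was 0.61 for the rises and −0.73 for the falls, with 21 rises and 36 falls of at least 2-fold. The excess of rises depends on scaling, with 283 higher and 269 lower under TMM scaling and 267 and 283 under median-of-ratios scaling. The median of all tested genes was 0.03, and 55.5% lay above 0. Without the date block limma called 0 genes in each direction, with 216 genes at an unadjusted p under 0.05, and DESeq2 with the block called 66 higher and 99 lower. DESeq2 ended the calls of 52 of the 115 called genes named by rule, among them COL4A1, COL2A1, LOXL1, P4HA1, MMP11, TIMP1, TIMP3, MSMO1, FDPS, ATF6, HSPA5, DDB2, HOXA6 and HOXC4. Each fold rests on 2 pairs and 1 residual degree of freedom, with the spread moderated across genes.

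**Figure D1:**
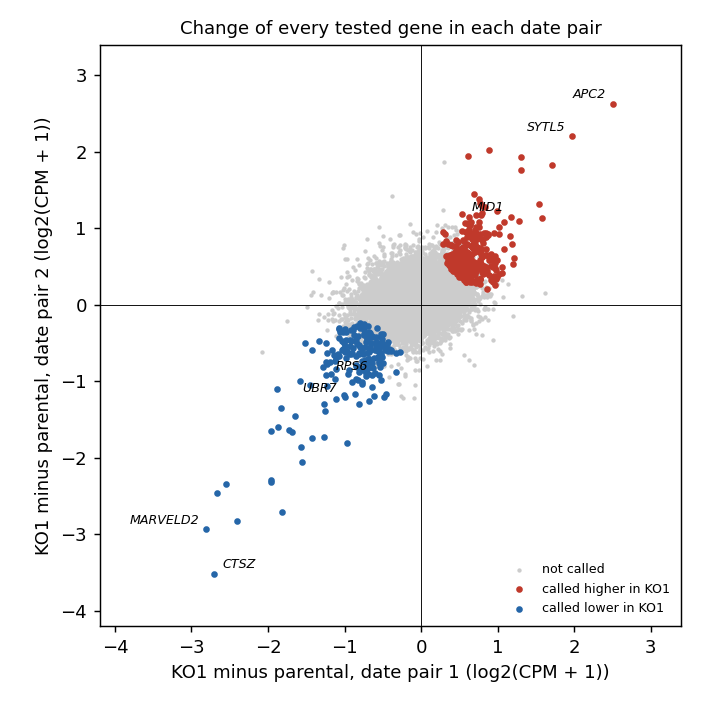
Log2(CPM + 1) change, KO1 minus parental, of each of the 14059 tested genes in date pair 1 (x axis) and in date pair 2 (y axis). The 303 genes called higher in KO1 (red) and the 193 called lower (blue) lie on the same side of 0 in both pairs, and those not called are grey. The calls were made from these same pairs.

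The 15 largest rises began with APC2, SYTL5 and COL6A3. APC2, a neuronal relative of the Wnt regulator APC, stood at 37.5 and 23.3 CPM in KO1 and 5.76 and 2.93 CPM in parental cells (chromosome 19, 1446300 to 1473243). It rose by 2.57 (SE 0.17, adjusted p = 8.39e-09), 6.51 and 7.96 times the parental level in date pairs 1 and 2. SYTL5, which links Rab27 to membranes, stood at 30.5 and 33.8 CPM in KO1 and 7.00 and 6.55 CPM in parental cells and rose by 2.09 (adjusted p = 3.65e-08). Both KO1 libraries lay far above both parental libraries for these genes. COL6A3, a chain of collagen VI (chromosome 2, 238232646 to 238323018), was a low-level gene at 7.99 and 3.69 CPM in KO1 and 1.75 and 0.316 CPM in parental cells, and rose by 1.77 (SE 0.20, adjusted p = 1.21e-05).

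Other rises followed the same layout. UNCX, a homeobox transcription factor, stood at 22.8 and 15.9 CPM in KO1 and 8.61 and 3.43 CPM in parental cells. MXRA8, a membrane protein that serves as a receptor for several alphaviruses, stood at 5.72 and 4.39 CPM in KO1 and 1.71 and 0.587 CPM in parental cells. NES, the intermediate filament nestin of neural progenitors, stood at 20.5 and 36.6 CPM in KO1 and 7.84 and 16.6 CPM in parental cells, so the groups did not overlap although each group's libraries differed by date. These 3 genes rose by 1.62, 1.54 and 1.19, with adjusted p of 1.64e-05, 9.76e-05 and 5.31e-05. CRABP2, which carries retinoic acid to the nucleus, stood at 46.8 and 70.0 CPM in KO1 and 22.98 and 29.3 CPM in parental cells, a rise of 1.11 (adjusted p = 1.84e-05). TNC, the matrix glycoprotein tenascin C, stood at 6.52 and 9.10 CPM in KO1 and 3.46 and 2.89 CPM in parental cells, a rise of 1.06 (adjusted p = 0.00601). EMILIN2, a glycoprotein of elastic fibres, stood at 6.86 and 16.0 CPM in KO1 and 2.70 and 7.04 CPM in parental cells, a rise of 1.08, with overlap between dates but not within a pair. The others of the 15 were TMCO3, MLLT11, PHKA2-AS1, DDR2, MID1 and PCK1, the cytosolic carboxykinase of gluconeogenesis, with rises of 1.36, 1.43, 1.45, 1.28, 1.17 and 1.07. DDR2, a collagen receptor kinase, was the least stable of them: it stood at 18.0 and 13.3 CPM in KO1 and 11.4 and 2.71 CPM in parental cells, with 1.58 and 4.93 times the parental level in the 2 pairs and an adjusted p of 0.0277, and it lost its call with a pseudocount of 0.1 or 0.5 and in edgeR's quasi-likelihood test.

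**Figure D2:**
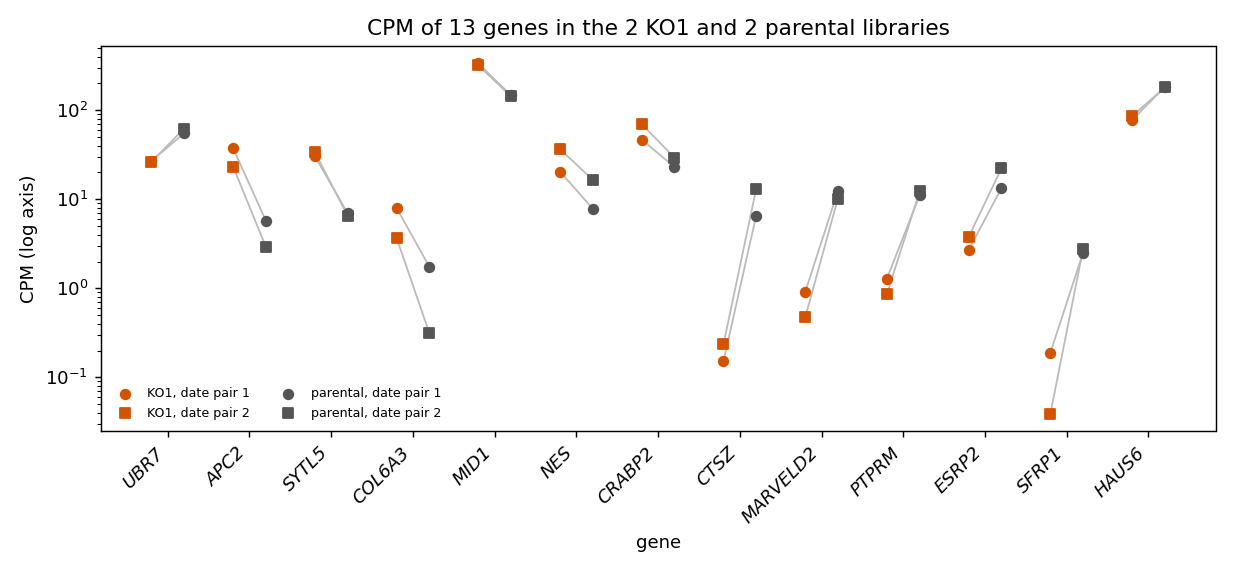
CPM on a log axis of UBR7, 6 genes that rose and 6 that fell in KO1, with the KO1 libraries left of the parental libraries for each gene. Circles are date pair 1 and squares date pair 2, and a line joins the libraries of 1 date. For UBR7 the KO1 libraries sit at 27.0 and 26.3 CPM, under both parental libraries, and for CTSZ they sit at 0.152 and 0.235 CPM.

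The 15 largest falls took several genes close to the floor of the libraries, where 1 read is worth 0.0379 and 0.0392 CPM in KO1. CTSZ, a lysosomal cathepsin (chromosome 20, 57570240 to 57582302), stood at 0.152 and 0.235 CPM in KO1, or 4 and 6 reads, against 6.53 and 13.1 CPM in parental cells. It fell by 3.11 (SE 0.22, adjusted p = 2.17e-08), and on the CPM scale to 0.0232 and 0.018 of the parental level in the 2 pairs. The pseudocount of 1 shrinks log2 changes at such low levels. MARVELD2, or tricellulin, a protein of the junctions where 3 epithelial cells meet (chromosome 5, 68710939 to 68740157), stood at 0.909 and 0.471 CPM in KO1 and 12.4 and 10.2 CPM in parental cells, and fell by 2.87 (adjusted p = 1.39e-08). PTPRM, a receptor phosphatase that binds its like on neighbouring cells, stood at 1.29 and 0.863 CPM in KO1 and 11.1 and 12.2 CPM in parental cells, and fell by 2.62 (adjusted p = 4.2e-08). ESRP2, a splicing factor of epithelial cells, stood at 2.69 and 3.77 CPM in KO1 and 13.3 and 22.2 CPM in parental cells and fell by 2.12. RP11-96D1.11, annotated as antisense, overlaps the 3′ end of ESRP2 and fell by 1.67. Both are annotated on the minus strand, so reads of the short overlap cannot be told apart, but most of RP11-96D1.11 lies outside ESRP2.

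Enzymes and signalling genes made up much of the rest. ACSS3, a mitochondrial acyl-CoA synthetase for short chains, stood at 0.303 and 0.589 CPM in KO1 and 7.26 and 7.76 CPM in parental cells, and MGST1, a membrane-bound glutathione transferase, at 0.947 and 0.549 CPM in KO1 and 5.84 and 9.16 CPM in parental cells. They fell by 2.56 and 2.26, with adjusted p of 4.2e-08 and 3.26e-06. CPPED1, a phosphatase, fell by 2.13, ARHGAP20, a GTPase-activating protein, by 1.81, and GAS7, which binds actin, by 1.68. BMP2, a bone morphogenetic protein ligand, stood at 1.33 and 0.549 CPM in KO1 and 7.48 and 3.70 CPM in parental cells. SFRP1, a secreted Wnt antagonist, stood at 0.189 and 0.0392 CPM in KO1, of which the second is a single read, and 2.52 and 2.75 CPM in parental cells. BMP2 fell by 1.73 (adjusted p = 1.64e-05), SFRP1 by 1.71 (adjusted p = 1.64e-05) and SNX19, a sorting nexin, by 1.59. The lincRNA RP11-453F18__B.1 fell by 2.45 and the antisense transcript AC116614.1 by 1.81. Outside these 15, ZNF883 fell by 1.17 and BEX1 by 1.59, both chosen from earlier results of these data.

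At 3 reads or fewer in both KO1 libraries stood 2 tested genes, and no gene did so in both parental libraries. GSPT2, a form of the translation termination factor eRF3, had 1 and 1 reads in KO1, against 62 and 41 reads in parental cells (chromosome X, 51486481 to 51489324). FAM110C had 1 and 1 reads in KO1, against 41 and 54 reads in parental cells (chromosome 2, 38814 to 46870). The ratios of KO1 to parental, corrected for library size, were 0.0186 (95% exact interval 0.00222 to 0.0687) and 0.0201 (0.0024 to 0.0747), intervals that cover counting error only. Both genes were picked out once their values were known and passed the filter of 1 CPM through the parental libraries alone, so they had to differ, and the ratios are a description. CTSZ, MARVELD2, ACSS3, MGST1, SFRP1, CPPED1, AC116614.1, RP11-96D1.11 and ZNF883 too stood above 1 CPM in the parental libraries alone, so the same limit holds for their falls.

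Among genes averaging at least 100 CPM over the 4 libraries, the changes were smaller. MID1, a ubiquitin ligase bound to microtubules, was the largest rise of these, at 336 and 319.7 CPM in KO1 and 147 and 143 CPM in parental cells (1.17, SE 0.12, adjusted p = 2.68e-06). MDK, the heparin-binding growth factor midkine, stood at 142 and 202 CPM in KO1 and 85.5 and 99.5 CPM in parental cells (a rise of 0.87), and CPE, the carboxypeptidase that trims prohormones, at 125 and 135 CPM in KO1 and 75.3 and 72.4 CPM in parental cells (a rise of 0.81). The groups did not overlap for any of these 3. TAGLN2, an actin-binding protein, APOA1BP, ITGB1, IDE, the insulin-degrading enzyme, and ARHGEF2, an exchange factor held on microtubules, rose by 0.79, 0.74, 0.71, 0.71 and 0.70. HAUS6, a subunit of the augmin complex of the spindle, stood at 77.6 and 85.8 CPM in KO1 and 183 and 180.5 CPM in parental cells, and fell by 1.14 (adjusted p = 3.21e-06). RPS6, a protein of the small ribosomal subunit whose processed copies in the genome may share its reads, stood at 1431 and 1045 CPM in KO1 and 3378 and 1974 CPM in parental cells and fell by 1.08 (adjusted p = 4.65e-05). XRCC2, of DNA repair, NOP58, a core protein of box C/D snoRNPs, LMAN1, a cargo receptor between the endoplasmic reticulum and the Golgi, and the clathrin light chain CLTA fell by 0.69, 0.65, 0.65 and 0.63. The transcript AC010970.2, annotated as a pseudogene whose copies may share reads, fell by 0.84 and RNU4-2, a U4 spliceosomal RNA with a near-identical copy, by 0.72. For RNU4-2 the dates lay further apart than the lines, at 123 and 25.0 CPM in KO1 and 216 and 39.4 CPM in parental cells. AC010970.2, placed on chromosome Y, stood at 2680 and 1939 CPM in KO1 and 3738 and 4464 CPM in parental cells. In parental library 3, outside this comparison, AC010970.2 stood at 13.7 CPM and RNU4-2 at 11.5 CPM. The levels of both thus differed widely between parental libraries.

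Several genes of the matrix around cells rose. Of 25 tested collagen chains 8 rose and 0 fell, against 2.16% and 1.37% of all tested genes, with a median log2 change of 0.30 for the list and of 0.28 and 0.37 in the 2 pairs. COL4A2, a chain of basement membrane collagen IV, stood at 122 and 111 CPM in KO1 and 64.3 and 69.9 CPM in parental cells, a rise of 0.79 (adjusted p = 0.000466). Its neighbour and partner chain COL4A1 stood at 56.0 and 66.0 CPM in KO1 and 30.9 and 47.6 CPM in parental cells, a rise of 0.65 (adjusted p = 0.00661), and both genes had KO1 libraries above both parental ones. COL2A1, of cartilage collagen, rose by 0.65, and COL18A1, COL5A1, COL6A1 and COL6A2 by 0.61, 0.58, 0.53 and 0.47, so 3 collagen VI chains were among the 8. COL1A1, the most abundant fibroblast marker, did not pass, at 9.58 and 7.38 CPM in KO1 and 10.9 and 12.6 CPM in parental cells (log2 change −0.44, adjusted p = 0.239). The enzymes that modify and crosslink collagen had 19 of 20 tested members above 0, with 2 called: the lysyl oxidase LOXL1 rose by 0.79 and the prolyl hydroxylase subunit P4HA1 by 0.54. Of 16 basement membrane genes 3 rose and 2 fell. LAMA5 and LAMC1, laminin chains, rose by 0.72 and 0.51, and NID1, which links laminin to collagen IV, by 0.62. LAMC1 and NID1 lie on chromosome 1 beyond 150 Mb, where genes were higher as a whole, and outside the stretches the list had 1 rise and 2 falls among 13. SPARC, which binds collagen and calcium, fell by 1.02 and the laminin chain LAMA1 by 0.52, a call that ended when the fit left out the 4 chromosomal stretches described further on.

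Receptors and proteases of the matrix held rises too, against 2.16% of all tested genes. Of 16 integrins and collagen receptors 3 rose and 0 fell: DDR2, the integrin chain ITGA8 (56.4 and 70.7 CPM in KO1 and 31.5 and 36.3 CPM in parental cells, a rise of 0.88) and its partner ITGB1 (259 and 424 CPM in KO1 and 137 and 297 CPM in parental cells). All 3 lie in stretches whose genes were higher in KO1 as a whole. Outside those stretches the integrin list had 11 of 13 tested members above 0, with 0 called. The metalloproteinase MMP11 and the inhibitors TIMP1 and TIMP3 were the 3 called of 16 in their list, with rises of 0.71, 0.60 and 0.60. MMP11 was at the edge, with an adjusted p of 0.0493, and lost its call when fitted outside the stretches or in the fit of all 6 RNA libraries. LUM, a small matrix proteoglycan in the fibroblast marker list, stood at 1.63 and 2.28 CPM in KO1 and 0.547 and 0.722 CPM in parental cells (a rise of 0.85). It passed the filter of 1 CPM through the KO1 libraries alone, so it had to differ, and its rise is a description.

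**Figure D3:**
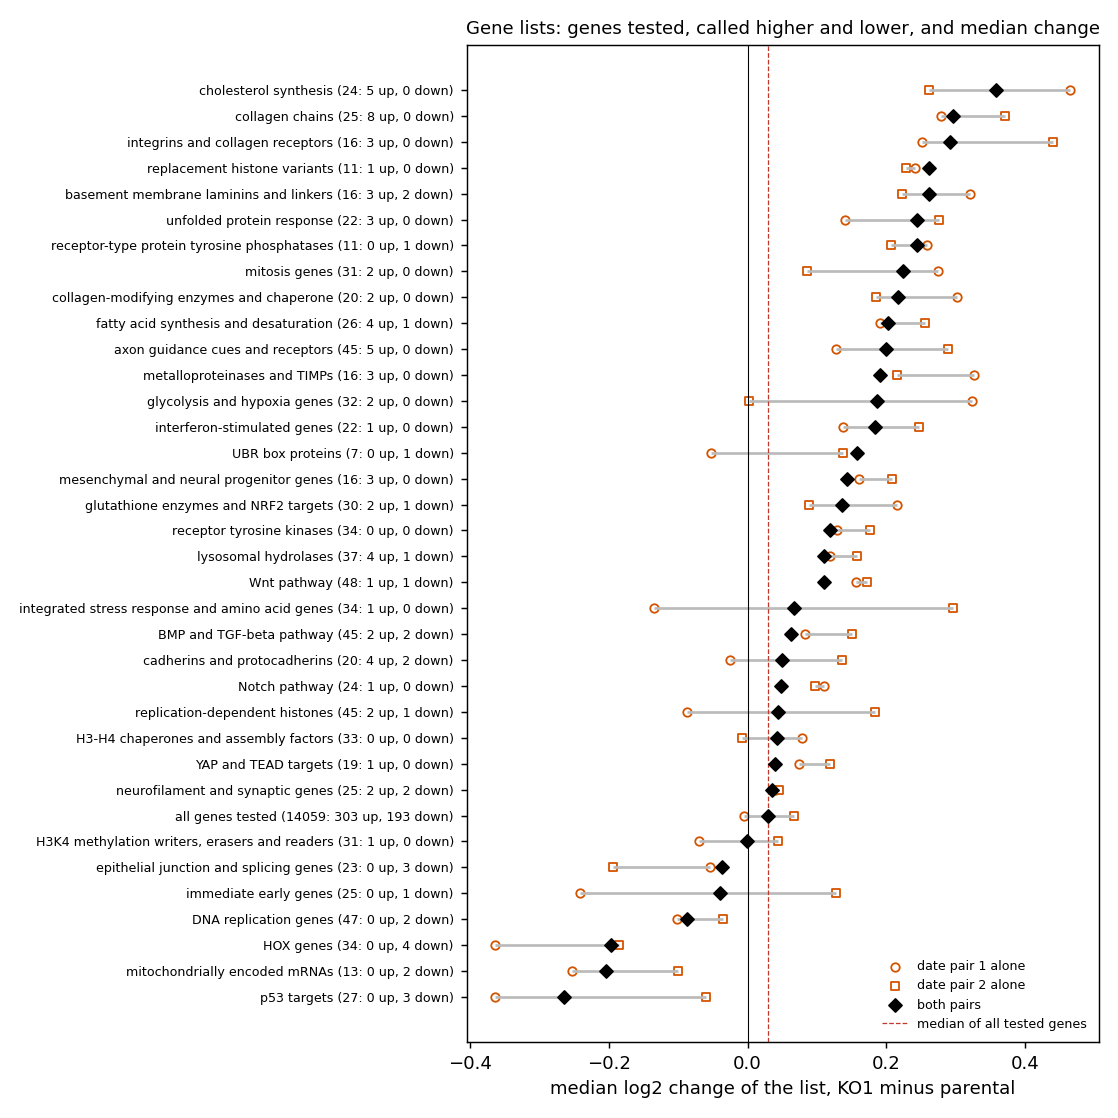
Median log2 change, KO1 minus parental, of each gene list (diamonds), with the medians of date pairs 1 (circles) and 2 (squares), and in brackets the genes tested and those called higher and lower. The dashed line is the median of all tested genes, 0.03, and the lists run from 0.36 for cholesterol synthesis to −0.27 for p53 targets.

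Epithelial and mesenchymal genes were split, and their lists are set beside 2.16% of all tested genes called higher and 1.37% lower. Of 23 tested junction and splicing genes of epithelia, MARVELD2, ESRP2 and SPINT2 fell, the last an inhibitor of surface serine proteases at 22.2 and 15.2 CPM in KO1 and 32.6 and 24.6 CPM in parental cells (−0.60, adjusted p = 0.0225), and 0 rose. The median of the list was −0.04, and 11 of the 23 lay above 0. Of 16 mesenchymal and neural progenitor genes NES, TNC and VIM rose and 0 fell. NES lies on the higher stretch of chromosome 1. Outside the stretches this list had 1 rise among 12 tested members, with a median of 0.07. VIM, the intermediate filament vimentin, stood at 830.2 and 669.6 CPM in KO1 and 487 and 528 CPM in parental cells (0.56, adjusted p = 0.0219), lies on chromosome 10, one of the higher stretches, and lost its call under TMM and under median-of-ratios scaling. Cadherins and protocadherins went both ways, with 4 rises and 2 falls among 20. DCHS1, a giant cadherin of planar polarity, stood at 25.2 and 15.5 CPM in KO1 and 10.5 and 8.49 CPM in parental cells (a rise of 0.99), and PCDH10 at 54.3 and 62.2 CPM in KO1 and 31.5 and 38.1 CPM in parental cells (a rise of 0.73). FAT3, another giant cadherin, stood at 38.6 and 27.0 CPM in KO1 and 70.4 and 43.3 CPM in parental cells (−0.76), and CDH3, placental cadherin, fell by 0.80. The other rises of the list were FAT4 (0.62) and CELSR2 (0.51).

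Signalling lists are set beside 2.16% of all tested genes called higher and 1.37% lower. In the BMP and TGF-beta list the receptors TGFBR2 (14.9 and 16.9 CPM in KO1, 9.34 and 8.49 CPM in parental cells) and ACVR2B (34.6 and 25.6 CPM in KO1, 21.0 and 17.02 CPM in parental cells) rose by 0.77 and 0.63, whereas the ligand BMP2 and ID2, a target of BMP signalling, fell. ID2 stood at 83.5 and 54.2 CPM in KO1 and 141 and 64.6 CPM in parental cells (−0.50, adjusted p = 0.0368), and those ranges overlap. The list held 45 tested genes, and its median was 0.06. The Wnt list had 1 rise, APC2, and 1 fall, SFRP1, among 48, and the Notch list 1 rise, NOTCH3, of 0.62 among 24. Axon guidance genes had 5 rises and 0 falls among 45: PLXNB1, UNC5B, SEMA3F, UNC5C and PLXND1, which are receptors for semaphorins and netrins and 1 semaphorin. UNC5B stood at 107 and 69.1 CPM in KO1 and 68.8 and 36.6 CPM in parental cells (0.76, adjusted p = 0.000841), and SEMA3F at 20.5 and 21.7 CPM in KO1 and 11.9 and 12.7 CPM in parental cells (0.73). PLXNB1, UNC5C and PLXND1 rose by 0.82, 0.61 and 0.55. UNC5B lies on chromosome 10, one of the higher stretches, and outside the stretches the list had 4 rises among 34. None of 34 receptor tyrosine kinases passed, in a list that leaves out DDR2, and MET, the most abundant, stood at 91.3 and 98.0 CPM in KO1 and 94.7 and 81.6 CPM in parental cells (0.10, adjusted p = 0.746). Of 11 receptor-type phosphatases only PTPRM passed, and of 19 YAP and TEAD targets only NT5E, an ectoenzyme that makes adenosine, a rise of 0.92.

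Genes of lipid synthesis lay mostly above 0. In the cholesterol synthesis list 23 of 24 tested genes were above 0, against 55.5% of all tested genes. In it 5 rose, where 2.16% of all tested genes were called higher and 1.37% lower. MSMO1, a sterol methyl oxidase, stood at 52.7 and 35.2 CPM in KO1 and 26.6 and 26.9 CPM in parental cells (0.67, adjusted p = 0.0142). IDI1, the isomerase of the isoprene units, stood at 103 and 131 CPM in KO1 and 58.1 and 91.3 CPM in parental cells (0.67, adjusted p = 0.00297). PMVK, FDPS and HMGCS1, enzymes before the sterol branch, rose by 0.62, 0.56 and 0.54. IDI1, PMVK and FDPS lie in stretches that were higher as a whole, yet the 20 members outside them had a median of 0.34 with 19 above 0. The fatty acid list had 4 rises, SCD5, ELOVL2, ACLY and FASN, of 0.54, 0.51, 0.50 and 0.45, and 1 fall, ACSS3, among 26, of which 21 were above 0. ACLY, which makes cytosolic acetyl-CoA, lost its call under TMM scaling, under median-of-ratios scaling and in edgeR's quasi-likelihood test.

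Lysosomal hydrolases had 4 rises, among them CTSL, CTSB and PSAP, of 0.52, 0.50 and 0.45, beside the fall of CTSZ, among 37. This list and the next 2 are set beside 2.16% of all tested genes called higher and 1.37% lower. Of the 4 rises, 2 lie in stretches that were higher as a whole, which leaves 2 rises and 1 fall among 34 outside. The other called cathepsins, CTSL at 56.9 and 109.5 CPM in KO1 and 32.9 and 90.5 CPM in parental cells and CTSB at 78.3 and 72.2 CPM in KO1 and 54.9 and 50.8 CPM in parental cells, had the opposite sign to CTSZ. The glutathione list also went both ways, with MGST3 (0.58) and GSTP1 (0.44) up and MGST1 down among 30. MGST3 lies on the higher stretch of chromosome 1. GSTP1 lost its call under both other scalings and in edgeR's quasi-likelihood test. Of 32 glycolysis and hypoxia genes P4HA1 and the hexokinase HK1 rose, by 0.54 and 0.61, and both lie on chromosome 10.

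Genes of the unfolded protein response, which raises chaperones when proteins misfold in the endoplasmic reticulum, had 20 of 22 tested members above 0. Of all tested genes 55.5% lay above 0. The list had a median of 0.24 and pair medians of 0.14 and 0.28. ATF6, a sensor that is itself a transcription factor, stood at 138 and 141 CPM in KO1 and 101 and 86.6 CPM in parental cells (0.57, adjusted p = 0.00944), on the stretch of chromosome 1 that was higher as a whole. The chaperones CALR (536 and 1049 CPM in KO1, 346 and 751 CPM in parental cells) and HSPA5 (137 and 285 CPM in KO1, 109 and 183 CPM in parental cells) rose by 0.55 and 0.48, and for both the dates lay further apart than the lines. Both calls ended under median-of-ratios scaling, with adjusted p of 0.0522 for CALR and 0.0588 for HSPA5. ATF6 and its partners bind the ER stress element, CCAAT and CCACG separated by 9 bases. The 250 bases before the start of each gene in RefSeq (GRCh38.p14) were searched for it on both strands, which found it in 7 of the 21 listed genes with a promoter sequence, against 25 of 27305 genes in all, and in 8 of their 28 promoters, against 26 of 35116 promoters in all (0.074%). The elements are shown with 5 bases on either side, the fixed letters in capitals, because they are what these members share beyond their readout, and each is written 5′ to 3′ on the strand that reads CCAAT first.
HSPA5: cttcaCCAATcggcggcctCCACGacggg
CALR: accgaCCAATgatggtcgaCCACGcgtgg
HSP90B1: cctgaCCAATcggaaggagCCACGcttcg
PDIA6: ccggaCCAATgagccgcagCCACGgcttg
CANX: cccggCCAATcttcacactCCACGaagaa
CRELD2: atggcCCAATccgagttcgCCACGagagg
XBP1: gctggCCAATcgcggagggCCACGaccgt
They lie at chr9:125241386-125241414 on the minus strand (HSPA5), chr19:12938379-12938407 on the minus strand (CALR), chr12:103930211-103930239 on the plus strand (HSP90B1), chr2:10812848-10812876 on the minus strand (PDIA6), chr5:179698773-179698801 on the plus strand (CANX), chr22:49918549-49918577 on the minus strand (CRELD2) and chr22:28800598-28800626 on the minus strand (XBP1). Only CALR and HSPA5 of these genes were called. HSP90B1, which has 2 elements of which the farther from the start is shown, PDIA6, CANX and CRELD2, also endoplasmic reticulum chaperones or their helpers, had log2 changes of 0.25, 0.25, 0.10 and 0.11. XBP1, the factor spliced by IRE1, stood at 222 and 152 CPM in KO1 and 351 and 124 CPM in parental cells, with opposite signs in the pairs and a log2 change of −0.18 (adjusted p = 0.748). The match is a description of these windows and shows nothing on binding.

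The p53 target list had the lowest median of the lists, with 24 of 27 tested genes below 0, a median of −0.27 and pair medians of −0.36 and −0.06. EDA2R, a receptor of the TNF family, stood at 1.17 and 0.981 CPM in KO1 and 7.04 and 3.25 CPM in parental cells (−1.49, adjusted p = 0.000328). AEN, a nuclease of apoptosis, stood at 51.5 and 38.4 CPM in KO1 and 109 and 52.1 CPM in parental cells, and DDB2, of nucleotide excision repair, at 14.9 and 13.6 CPM in KO1 and 32.0 and 17.7 CPM in parental cells. AEN fell by 0.75 and DDB2 by 0.71. In each of the 3 genes parental library 1 was the highest of the 4. CDKN1A, the classic p53 target, did not pass, at 23.3 and 16.9 CPM in KO1 and 36.1 and 16.2 CPM in parental cells (−0.28, adjusted p = 0.436). HOX genes, which set position along the body axis, had 29 of 34 below 0 and 4 falls, where 55.5% of all tested genes lay above 0 and 1.37% were called lower. HOXA10 stood at 45.7 and 31.9 CPM in KO1 and 73.0 and 47.3 CPM in parental cells (−0.61, adjusted p = 0.00765), and HOXA5, HOXA6 and HOXC4 changed by −0.57, −0.67 and −0.67. Parental library 1 was again the highest for all 4.

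Lists closest to the role given to UBR7 are read against the 2.16% of all tested genes called higher and the 1.37% called lower. Of 33 H3-H4 chaperones and assembly factors 0 passed, with changes between −0.24 and 0.50 and a median of 0.04. NPM1, the most abundant, stood at 1877 and 2648 CPM in KO1 and 1823 and 2649.8 CPM in parental cells (0.02, SE 0.14, adjusted p = 0.963). Of 31 genes that write, erase or read H3K4 methylation only KDM5B, a demethylase on the higher stretch of chromosome 1, passed (0.43, adjusted p = 0.0433), and it lost its call under both other scalings and in edgeR's quasi-likelihood test. Of 11 replacement histone variants the linker histone H1FX rose by 0.49, at 152 and 52.1 CPM in KO1 and 119 and 33.0 CPM in parental cells, where the dates differ more than the lines. Replication-dependent histones, near-identical copies that can share reads, had 2 rises, HIST3H2BB (0.64) and HIST2H2BE (0.51), and 1 fall, HIST1H2AL (−0.86), among 45, with pair medians of −0.09 and 0.18. HIST3H2BB lies on the higher stretch of chromosome 1. HIST2H2BE lies just short of it, between 140 and 150 Mb, where 52 of 63 genes lay above 0 with a median of 0.14. HIST2H2BE lost its call under TMM and under median-of-ratios scaling.

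The next lists are set beside 55.5% of all tested genes above 0, 2.16% called higher and 1.37% lower. The mitosis list had 27 of 31 tested genes above 0 and a median of 0.22. In it CENPF and KIF11 rose by 0.54 and 0.49, on the higher stretches of chromosomes 1 and 10, and lost their calls under median-of-ratios scaling. Of 47 DNA replication genes the kinase CDC7 and the polymerase subunit POLD3 fell by 0.58 and 0.52. CDC7 stood at 98.6 and 142 CPM in KO1 and 181 and 174 CPM in parental cells. The mitochondrially encoded MT-ND5 and MT-ATP8 fell by 0.57 and 0.44, with 12 of 13 mRNAs below 0, and MT-ND5 stood at 102 and 312 CPM in KO1 and 171 and 411 CPM in parental cells. The integrated stress list went opposite ways in the pairs, with medians of −0.14 and 0.30, and held 1 rise, PCK2 (0.51). Of 22 interferon-stimulated genes IFIT5 rose by 0.64, and of 25 immediate early genes MYC fell by 0.44 (adjusted p = 0.0498), at 137 and 81.8 CPM in KO1 and 165 and 125 CPM in parental cells. IFIT5 lies on chromosome 10, one of the higher stretches. A single call in a list of this size is not read as a result on the list. The calls of MYC and MT-ATP8 ended in the fit without the 4 stretches. Neurofilament and synaptic genes had 2 rises, SYTL5 and SYT11 (0.77), and 2 falls, BEX1 and ELAVL2 (−0.91), among 25. SYT11 lies on the higher stretch of chromosome 1, and ELAVL2 on the lower stretch of chromosome 9. The most abundant HEK293 marker, NEFM, did not pass, with a log2 change of 0.16.

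Calls were unevenly spread along the chromosomes. Nuclear bins of 10 Mb with at least 10 tested genes had medians between −0.13 and 0.15 outside 4 stretches, which were delimited after their values were seen, and the 15 tested mitochondrial genes had a median of −0.16. In those 4 stretches lay 10.3% of tested genes, 38.3% of the rises and 34.7% of the falls. On chromosome 9 from 19 to 40 Mb, 99 of 102 genes lay below 0 and 50 fell (49.0%), with a median of −0.52 and pair medians of −0.53 and −0.51. On chromosome 1 beyond 150 Mb, 486 of 553 genes lay above 0, 83 rose (15.0%) and 0 fell, with a median of 0.27. Along the whole of chromosome 10, 452 of 562 genes lay above 0, with 32 rises, 2 falls and a median of 0.19. On chromosome 17 below 20 Mb, 203 of 230 genes lay below 0, with 15 falls, 1 rise and a median of −0.24, whereas the 70 genes from 20 to 30 Mb had a median of 0.15. Over all of chromosome 17 beyond 20 Mb, 421 of 641 genes lay above 0, with 21 rises, 2 falls and a median of 0.08. ACLY, named above, lies there.

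**Figure D4:**
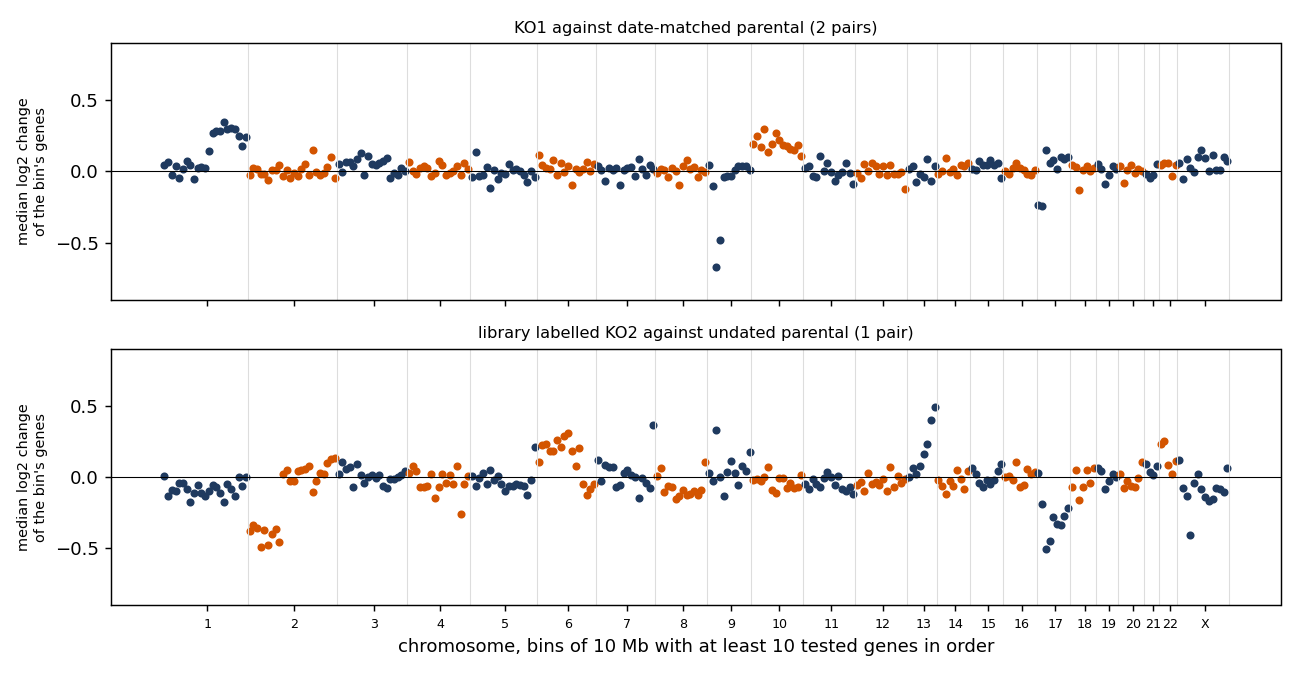
Median log2 change of the tested genes in bins of 10 Mb with at least 10 tested genes, in chromosome order, for KO1 against date-matched parental (top, 2 pairs) and for the library labelled KO2 against parental library 3 (bottom, 1 undated pair), with colours alternating by chromosome. In the top panel the genes of chromosomes 1, 9, 10 and 17 stand off 0 in runs of neighbouring bins, and in the bottom panel runs stand off 0 on chromosomes 2, 6, 13 and 17.

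The edge on chromosome 9 was sharp. From the chromosome's start to RRAGA 45 genes were tested, with a median of 0.03 and 0 called, and the last of them, SH3GL2, had a log2 change of −0.03. RRAGA, a GTPase of amino acid sensing, stood at 28.1 and 16.9 CPM in KO1 and 41.2 and 28.9 CPM in parental cells (−0.64, adjusted p = 0.0124), and the next gene, HAUS6, at 0.425 and 0.476 times the parental level in the 2 pairs. The first 16 genes, up to 25 Mb, had a median of −0.87 with 13 falls, and the 86 genes from 25 to 40 Mb a median of −0.49 with 37. MTAP, an enzyme of methionine salvage, stood at 40.9 and 43.2 CPM in KO1 and 83.4 and 99.5 CPM in parental cells (−1.10), which is 0.49 and 0.434 times the parental level in the 2 pairs. The inhibitor of cyclin-dependent kinases CDKN2B changed by −1.32 and the tropomyosin TPM2 by −1.05. RPS6, ELAVL2 and CLTA, named above, lie on this stretch too, and RRAGA, SH3GL2, MTAP, CDKN2B and TPM2 were picked once their values were known.

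**Figure D5:**
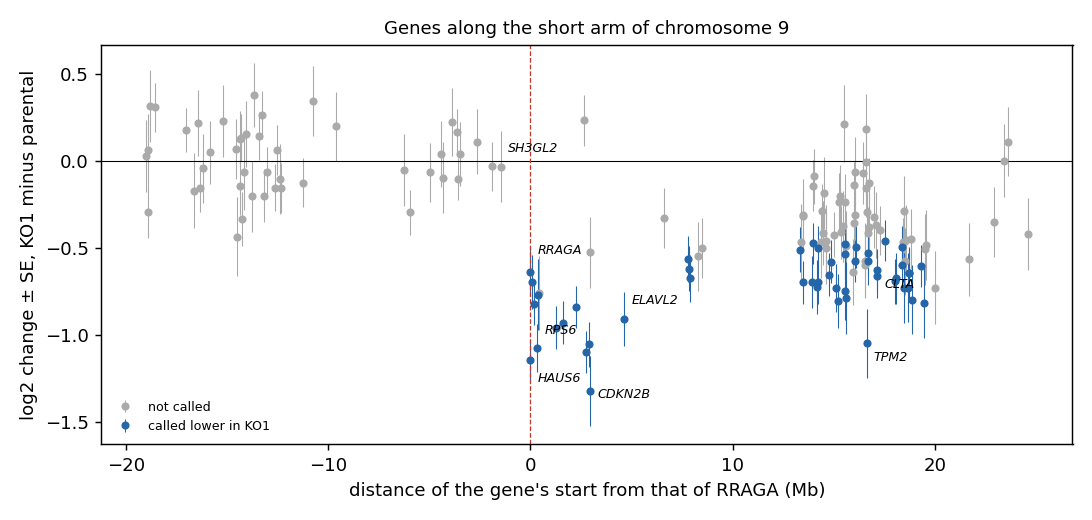
Log2 change with its SE, KO1 minus parental, of each tested gene on the short arm of chromosome 9, by the distance of its start from that of RRAGA in Mb (dashed line). The 45 genes to the left scatter around 0 and none is called, and those to the right, with 50 called lower (blue), lie below 0 but for 3 up to 40 Mb.

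Many calls lie outside these stretches. Fitted without their 1447 genes, a choice made after seeing the data, the other 12612 gave 150 rises and 107 falls, all of them also called in the full fit. All 8 collagen chains, the metalloproteinase and inhibitor genes, the 3 epithelial genes, the 3 p53 targets and the 4 HOX genes lie outside. Inside lie 4 of the 15 largest rises (MLLT11, DDR2, NES and CRABP2) and 1 of the 15 largest falls (GAS7), each further from 0 than the median of its stretch. Of the abundant genes, TAGLN2, APOA1BP and ARHGEF2 lie on the stretch of chromosome 1, and ITGB1 and IDE on chromosome 10. What sets the levels of whole stretches was not tested.

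A second knockout line, KO2, has 1 library, in an undated pair with parental library 3. UBR7 stood at 64.5 CPM in the library labelled KO2 and at 62.2 CPM in parental library 3, so its RNA level does not bear out that label. The RNA level alone does not show whether the protein is lost, so the label stays unsettled. No direction drawn from that pair is therefore assigned to loss of UBR7. With separate factors for KO1 and the library labelled KO2 and the pair as a block, 658 of 14059 genes (4.68%) differed in their change between the 2 (limma adjusted p under 0.05, 1 residual degree of freedom). The spread in that fit comes from the KO1 pairs, and the lone library labelled KO2 is assumed to vary as they do, so the count compares that library and not a replicated line. Of the 115 called genes named here by rule, 44 had the same sign in both. SFRP1 stood at 0.168 CPM in the library labelled KO2 and 2.13 CPM in parental library 3, and BMP2 at 0.503 CPM in the library labelled KO2 and 3.91 CPM in parental library 3, so both were on the lower side there as well. SNX19 stood at 0.537 CPM in the library labelled KO2 and 3.16 CPM in parental library 3. SFRP1, BMP2 and SNX19 passed as lower in the authors' own comparison, which includes this pair. Their direction in the pair is therefore no separate support.

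For the matrix genes and the stretches that pair gave other values. COL4A2 stood at 85.2 CPM in the library labelled KO2 and 72.9 CPM in parental library 3, and the collagen list had a median of −0.15. DDR2 and TNC, which rose in KO1, had changes of −4.56 and −3.72 there. On chromosome 9 from 19 to 40 Mb the pair had a median of 0.05, on chromosome 1 beyond 150 Mb −0.05, on chromosome 10 −0.03 and on chromosome 17 below 20 Mb 0.01. The 16 genes of chromosome 9 from 19 to 25 Mb had a median of 0.53 there, and the 70 genes of chromosome 17 from 20 to 30 Mb one of −0.51. In the authors' deposited table, which sets the 3 libraries labelled as knockouts against the 3 parental ones, 6 genes were lower at an adjusted p under 0.05 and 0 higher. That table gives log2 changes of −4.17 for SFRP1, −2.68 for BMP2, 2.70 for APC2 and −1.16 for CTSZ. Of these SFRP1 and BMP2 passed there, and APC2 and CTSZ did not. Its changes are not on the log2(CPM + 1) scale, and its libraries include the 4 used here, so it is no separate support.

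Sites of tagged UBR7 were set beside the calls, using the 5895 peaks the authors deposited for 1 GFP ChIP library of cells with a GFP tag on UBR7. A peak lay within 1000 bases of the start of 79 of the 303 genes that rose (26.1%) and of 26 of the 193 that fell (13.5%), against 24.6% of all tested genes. Regions open in parental cells by ATAC-seq, which reads chromatin accessible to a transposase, lay there for 43.9% of the rises and 41.5% of the falls, against 54.2% of all tested genes. Outside the 4 stretches the shares with a GFP-UBR7 peak were 24.6% of rises and 11.1% of falls, against 24.3%. Among the rises named by rule, ACVR2B, APC2, ELOVL2, H1FX, HIST3H2BB, IDE, KDM5B, KIF11, LAMA5, MSMO1, NID1, TAGLN2, TGFBR2, TIMP3 and UNC5B had a GFP-UBR7 peak, and of the falls CPPED1, LAMA1, POLD3, RPS6, SPINT2 and XRCC2. These are shares of gene starts over peak lists of 1 ChIP library and 1 merged set of 2 ATAC libraries, with no test.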

How the data were processed

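RNA-seq of 2 KO1 and 2 parental HEK293T libraries was used. The deposited table gives CPM per gene, which the authors scaled to the reads of each library with no further scaling. TopHat2 2.1.0, HTSeq 0.6.1 and edgeR are named in the submitters' processing notes without a role. Whole reads were recovered from the CPM steps for 100% of values within 1e-06. Gene starts in the table lie within 1000 bases of those in GRCh38 for 3.79% of genes, so its coordinates are of the GRCh37 type. The authors' deposited table also gives log2 fold changes and p-values of their own comparison, and the deposited peak files give a score per peak, which was not used to rank them.

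Genes above 1 CPM in at least 2 of the 4 libraries were tested on log2(CPM + 1) with limma 3.58.1 in R 4.3.3, with the date code as a block and Benjamini-Hochberg adjustment over all 14059 genes. A gene was called at an adjusted p under 0.05. The date codes stand in the deposited column names, and the pairing was checked by the correlation of deviations from the group means between libraries of 1 date (0.808). edgeR 4.0.16 and DESeq2 1.42.0 were run on the recovered reads as alternatives, and the test was tried on simulated data.

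Genes named by rule are UBR7, the 15 largest rises and the 15 largest falls, the 8 largest rises and the 8 largest falls among called genes averaging at least 100 CPM, from each list at most 4 called genes (or, with none called, its most abundant), the most abundant gene of each marker list, and SFRP1, SNX19, BEX1 and ZNF883 from earlier results; other members are named to complete a list's calls or as pathway landmarks. A few genes that the rule or the lists hold are counted but not reported here by name. The comparison, its members and its lists were chosen with earlier results of these data known. Parental library 3 and the library labelled KO2 did not enter the main test. They entered the contrast between the 2 lines, 1 alternative fit, and the values of the undated pair that are given beside those of KO1.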

Additional observations from a re-analysis of the deposited data

Results flagged for a closer look

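The KO1 change was set against the change of the library labelled KO2, both on the log2(CPM + 1) scale with their own parental libraries, and 69 of the 120 genes named by rule differed at a limma adjusted p under 0.05, 42 with a higher and 27 with a lower change in KO1. The background is 658 of 14059 genes (4.68%). The named genes were mostly chosen because they changed in KO1, so their share cannot be read against it, and 1 library of KO2, whose UBR7 was not lower than in parental library 3, cannot tell the line from its preparation. The spread comes from the KO1 pairs and is assumed for that library, so the differences describe it and not a replicated line. Every value here is the KO1 change minus that of the library labelled KO2.

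Among genes with a lower change in KO1, the junction protein MARVELD2 and the splicing factor ESRP2 led. The values were MARVELD2 (−4.46), ESRP2 (−3.24), CTSZ (−3.20), PTPRM (−3.16), RP11-96D1.11 (−2.71), GAS7 (−2.55), FAT3 (−2.51), AC116614.1 (−2.36), SPINT2 (−2.32), HIST1H2AL (−2.23), RP11-453F18__B.1 (−1.98), CPPED1 (−1.84), RPS6 (−1.71), ELAVL2 (−1.62). Smaller differences were HOXA10 (−1.62), ACSS3 (−1.59), EDA2R (−1.55), HAUS6 (−1.48), MGST1 (−1.38), HOXC4 (−1.31), DDB2 (−1.20), UBR7 (−1.16), COL2A1 (−1.14), AEN (−0.95), POLD3 (−0.94), HOXA5 (−0.91), MYC (−0.80). UBR7 itself is one of them, since it fell in KO1 and not in the library labelled KO2. The genes RPS6, ELAVL2 and HAUS6 lie on chromosome 9 from 19 to 40 Mb.

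Among genes with a higher change in KO1, the collagen receptor DDR2, the matrix protein TNC and the Rab27 effector SYTL5 led. The values were DDR2 (5.84), TNC (4.79), SYTL5 (4.29), MXRA8 (3.94), CRABP2 (3.37), MID1 (3.27), SPARC (2.72), MLLT11 (2.43), APC2 (2.41), EMILIN2 (2.36), TGFBR2 (2.04), SYT11 (2.01), COL6A3 (1.94), DCHS1 (1.69). A middle group held BEX1 (1.62), ITGA8 (1.57), NES (1.51), TIMP1 (1.36), TAGLN2 (1.36), LOXL1 (1.28), NEFM (1.26), IFIT5 (1.25), CTSL (1.24), PCDH10 (1.23), SCD5 (1.14), TIMP3 (1.12), CPE (1.10), VIM (1.04). The smallest differences included ACLY (1.02), TMCO3 (1.01), NID1 (0.96), ITGB1 (0.91), ARHGEF2 (0.90), IDE (0.89), UNC5B (0.89), CTSB (0.88), ATF6 (0.88), APOA1BP (0.83), KDM5B (0.79), CALR (0.79), P4HA1 (0.72). BEX1 and SPARC stand here although both fell in KO1, because their change against parental library 3 was larger still in the library labelled KO2. NEFM differed without being called in KO1.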

How the results depend on the processing

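The date block decides the calls. No replicate block left 0 genes higher and 0 lower, with UBR7 still at −1.10 (adjusted p = 1), and all 115 called genes named by rule lost their call without reversing; leaving out 1 library at a time, which allows no block, gave 0 to 9 genes higher and 3 to 14 lower, with UBR7 from −1.19 to −1.02 (adjusted p from 0.431 to 1). With the block, edgeR's quasi-likelihood test called 317 higher and 306 lower and DESeq2 66 higher and 99 lower, of which 164 were also called by limma. Genes outside the 4 stretches, an alternative chosen after seeing the data, gave 150 higher and 107 lower. The other alternatives (pseudocounts of 0.1 and 0.5, TMM and median-of-ratios scaling, no filter, genes above 5 CPM, a fit of all 6 RNA libraries) kept both counts within 1.5 times. The fit of all 6 libraries still takes its spread from the KO1 pairs alone. Its 315 rises and 201 falls are therefore no separate check of the calls. Of the 115, TMM scaling ended 6 calls, median-of-ratios scaling 9, edgeR's test 4 and DESeq2 52, and with the 5 CPM filter 94 were kept, 8 ended and the others were no longer tested. NPM1, at 0.02, turned to −0.013 under TMM scaling and in edgeR's test, and to −0.018 under median-of-ratios scaling and in DESeq2. Leaving out 1 library turned some genes between dates: CALR ran from −0.0025 to 1.11, CTSL −0.19 to 1.24, H1FX −0.42 to 1.40, HIST2H2BE −0.15 to 1.17, HK1 −0.10 to 1.33, HSPA5 −0.045 to 1.01, ID2 −1.05 to 0.059, MET −0.0015 to 0.21, MT-ATP8 −1.37 to 0.49, MT-ND5 −1.37 to 0.23, NEFM −0.69 to 1.02, NPM1 −0.25 to 0.29, PCK2 −0.23 to 1.26 and RNU4-2 −1.93 to 0.49. Of 38 list medians, 5 moved under TMM scaling, 9 under median-of-ratios scaling, 9 above 5 CPM and 12 to 21 on leaving out 1 library, by more than their spread between pairs. Leaving out 1 library also turned the sign for the integrated stress, replication histone, replacement variant, H3K4, mitochondrial mRNA, cadherin, immediate early, neurofilament, HEK293, H3-H4 chaperone, DNA replication and fibroblast lists. The median of the neurofilament list turned under DESeq2, and those of the fibroblast and immediate early lists above 5 CPM. The causes were not tested. Depth limits genes near 1 CPM, since 1 read is worth 0.0365 to 0.0451 CPM.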

Other observations

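Called lincRNAs and snRNAs were all lower in KO1. Of 400 lincRNAs tested 9 fell and 0 rose in KO1, and of 21 snRNAs 5 fell and 0 rose, against 296 rises and 171 falls among 12482 protein-coding genes. The snRNAs were RNU4-1 and RNU4-2 of U4, RNU2-6P and RNU2-64P, annotated as U2 copies, and RNU5E-1 of U5, parts of the spliceosome. RNU4-1 stood at 62.4 and 17.9 CPM in KO1 and 102 and 32.4 CPM in parental cells (log2 change −0.76), and RNU5E-1 at 22.0 and 9.10 CPM in KO1 and 52.99 and 14.7 CPM in parental cells (−0.93). In all 5 the libraries of date pair 1 were above those of date pair 2 within each group, and for RNU4-1, RNU4-2, RNU2-6P and RNU2-64P the dates lay further apart than the lines. RNU2-64P stood at 115 and 9.93 CPM in KO1 and 185 and 16.8 CPM in parental cells. Copies of these genes may share reads. Among the lincRNAs, AL589743.1 stood at 38.4 and 25.1 CPM in KO1 and 72.0 and 31.8 CPM in parental cells (−0.61), and RP11-220I1.1 at 38.9 and 29.2 CPM in KO1 and 63.2 and 48.1 CPM in parental cells (−0.69). RP11-220I1.1 lies on the lower stretch of chromosome 9. AL133493.2, CTC-480C2.1, RP11-150O12.3 and ZNF883, also among the 9, stood above 1 CPM in the parental libraries alone. These genes could therefore only be lower in KO1, and the count of lincRNA falls is a description. The lincRNA and snRNA groups were looked at after their values were seen, and the shares were not tested.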
